A study of Bos grunniens with 6 samples.

Results

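The family of miR-34 and miR-449 miRNAs was examined in small-RNA libraries of cultured yak (Bos grunniens) hair follicle cells. Members were taken by name, as the entries with the cattle names bta-miR-34a, bta-miR-34b, bta-miR-34c, bta-miR-449a, bta-miR-449b and bta-miR-449c, written below without the prefix. All 6 were listed, each as 1 entry, among 2853 entries in all, of which 757 have cattle names and 2096 are predicted miRNAs. The samples were 3 libraries of dermal papilla cells and 3 of hair matrix cells. Dermal papilla cells are the mesenchymal signalling cells at the follicle base, and hair matrix cells are the proliferating epithelial cells that produce the hair shaft. Both groups were wild type, came from skin and were isolated and then cultured in DMEM/F12 with serum, IGF1, EGF and antibiotics, with no other treatment. The replicates are called biological, but no animal, age or separate culture is named for them, so p-values measure only the spread between these libraries. The series asks which miRNAs differ between the cell types.

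miRNAs of this family pair with target mRNAs through bases 2 to 8 of the mature strand, called the seed. miR-34a is made from its own transcript, miR-34b and miR-34c share another transcript, and miR-449a, miR-449b and miR-449c lie together in an intron of CDC20B. The miR-34 genes are known as transcriptional targets of p53, and the miRNAs repress cell cycle and survival genes such as CDK6, MET and BCL2. In keratinocytes p63 is known to repress miR-34a and miR-34c. The miR-449 cluster is best known from multiciliated epithelia, where it represses cell cycle and Notch pathway genes. In the RefSeq annotation of the yak assembly Bosgru_T2T1.0, CDC20B is followed by GPX8 and then by MCIDAS and CCNO, which are regulators of multiciliated cells. The positions of the miRNAs themselves were not analysed here.

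The deposited mature sequences are shown to let the shared seed and the differences outside it be compared. They are written 5′ to 3′ with T for U, and capitals mark bases 2 to 8.
miR-34a: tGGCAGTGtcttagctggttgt
miR-34b: aGGCAGTGtaattagctgattg
miR-34c: aGGCAGTGtagttagctgattg
miR-449a: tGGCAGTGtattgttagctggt
miR-449b: aGGCAGTGtattgttagctggc
miR-449c: aGGCAGTGcatctctagctgg
All 6 members carried the same seed, GGCAGTG. Besides them, 1 predicted entry had these letters at bases 2 to 8, so that 7 of 2853 entries, or 0.245%, shared the seed. That predicted entry had 1 read in all, in hair matrix replicate 2. The members therefore held all but 1 of the reads listed under this seed.

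Outside the seed the members differed in sequence. miR-34a and miR-449a begin with T, and the other members with A. Counted from 1 at the 5′ end, miR-34b and miR-34c differed by the single substitution A11G, and miR-449a and miR-449b by T1A and T22C. From base 1, miR-34a had 7 mismatches to miR-449a over 22 bases. Behind the seed all members held the letters TAGCTG, at bases 12 to 17 in miR-34a, 13 to 18 in miR-34b and miR-34c, and 15 to 20 in the miR-449 members. This stretch was picked after the sequences were seen and was searched on the listed strand alone. It was present behind base 8 in 15 of 2853 entries, or 0.526%, a count that includes the members themselves. Compared over the whole overlap of at least 18 bases, miR-34b and miR-34c were the only members within 1 mismatch of another entry. miR-449a and miR-449b, with 2 mismatches over 22 bases, were identical between their first and last bases. Reads could have been divided within either pair if mismatches or shortened ends were allowed in the counting, which is not known.

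Values are in RPM, reads scaled to 1000000 reads of a library, whose totals were 23904796 to 24693655 reads. In these units 1 read is worth 0.0405 to 0.0418 RPM. Between 0.121 and 0.125 RPM correspond to 3 reads, used as the floor of detection. Floors and intervals cover counting error only. The labelled cell types matched their marker miRNAs. The summed level of 6 epithelial entries (miR-200a, miR-200b, miR-200c, miR-141, miR-429 and miR-205) was 82.9 to 108 RPM in dermal papilla and 22064 to 22261 RPM in hair matrix libraries. The summed level of 6 mesenchymal entries (miR-143, miR-145, both arms of miR-199a, miR-199b and miR-214) was 88413 to 91201 RPM and 1204 to 1421 RPM. Summed levels of blood entries (miR-451, miR-223 and both arms of miR-142) were 17.2 to 19.5 and 7.53 to 10.9 RPM. Most of this was miR-451, at means of 17.5 and 8.77 RPM. miR-142-3p was at 0 in every library but hair matrix replicate 1, where it was at 0.0405 RPM. Endothelial entries (both arms of miR-126) summed to 3.68 to 4.70 and 2.57 to 4.01 RPM. Muscle entries (miR-1, miR-133a and miR-206) summed to 57.7 to 72.4 and 24.6 to 26.3 RPM. Most of this was miR-1, at means of 66.0 and 25.4 RPM, while miR-206 went the other way, at 0.0139 and 0.0825 RPM. The part of the blood, endothelial and muscle entries in the results was not tested.

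The family went in different directions by locus. The members with the miR-34 name that could be tested were higher in hair matrix cells, and the miR-449 members were higher in dermal papilla cells. Log2 changes below are dermal papilla minus hair matrix after adding a pseudocount of 1 RPM, so that the change of a low member appears smaller than it is. Folds compare mean RPM directly. A member was called at a limma adjusted p under 0.05 and at least 2-fold. Of 503 miRNAs tested, 127 (25.2%) were called with the dermal papilla level higher and 100 (19.9%) with the hair matrix level higher. After median centring these counts were 109 and 137. They were 155 and 227 of 764 tested after rescaling to the listed reads without the 5 most abundant entries. No overlap between the 3 libraries of each type was seen for 84.1% of the tested miRNAs. Beside this background, 3 family members were called with the dermal papilla level higher and 2 with the hair matrix level higher. These members were chosen with earlier results known, and miR-449b and miR-449c reached 1 RPM in dermal papilla libraries alone. Their difference thus follows in part from the filter on low values, so the counts support no statement about the family as a whole.

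**Figure D1:**
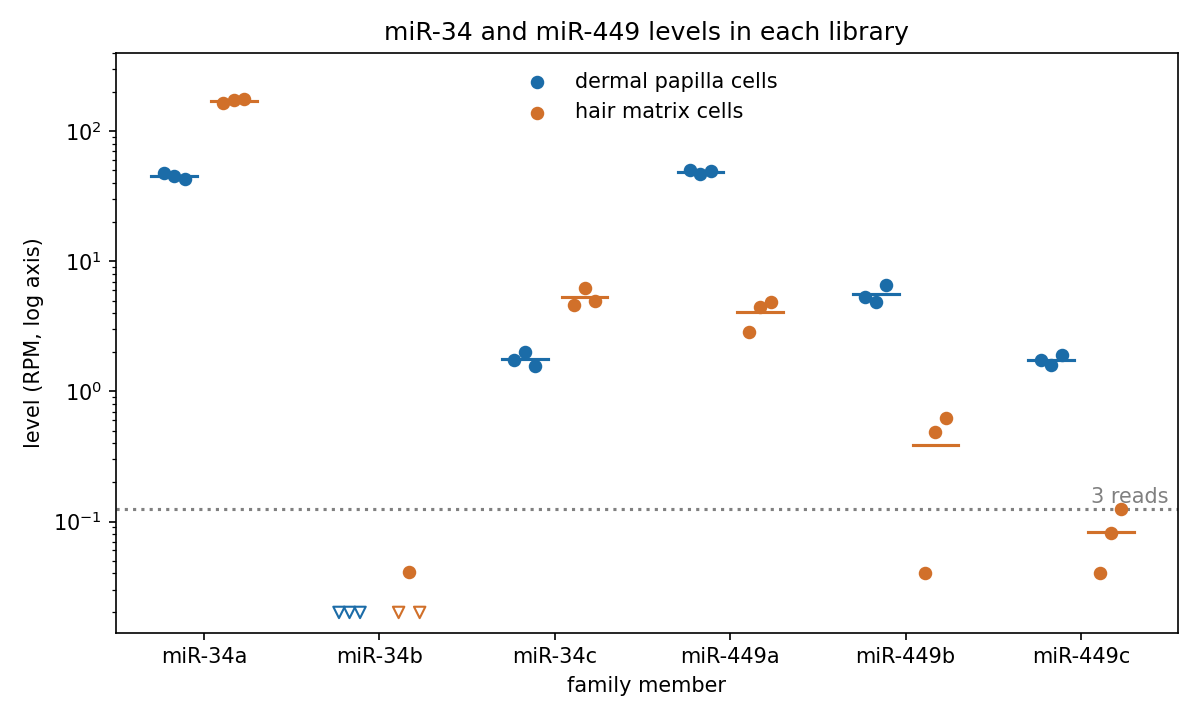
Level of each family member in RPM on a log axis, with 1 point per library, a bar at the mean of 3 libraries, open triangles for libraries with 0 reads and a dotted line at 3 reads. miR-34a and miR-34c are higher in every hair matrix library, the miR-449 members are higher in every dermal papilla library, and miR-34b has 1 read in 1 library.

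miR-34a, the member most studied as a p53 target, was found in dermal papilla replicates 1, 2 and 3 at 47.5, 45.3 and 43.0 RPM. In hair matrix replicates 1, 2 and 3 it was at 164, 173 and 176 RPM. Each hair matrix library lay far above each dermal papilla library. The means were 45.3 ± 2.27 RPM (SD, n = 3) and 171 ± 6.49 RPM (SD, n = 3), so that miR-34a was 3.78-fold higher in hair matrix cells. The log2 change was -1.90 ± 0.062 (SE) with a limma adjusted p of 8.60e-08. By mean level it ranked 149 of the 2853 entries in dermal papilla and 93 in hair matrix libraries.

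miR-34c, which derives from the transcript it shares with miR-34b, was far less abundant than miR-34a. Its levels were 1.76, 2.01 and 1.57 RPM in dermal papilla replicates 1, 2 and 3 and 4.62, 6.25 and 5.00 RPM in hair matrix replicates 1, 2 and 3. The groups did not overlap, and miR-34c differed in the same direction as miR-34a, being 2.98-fold higher in hair matrix cells. The log2 change was -1.17 ± 0.121 (SE) with a limma adjusted p of 6.21e-05. This was a difference under 2-fold with a pseudocount of 10, at a log2 change of -0.38. In reads, miR-34c rested on 128 in dermal papilla and 387 in hair matrix libraries.

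miR-34b was not detectable at this depth. No read was listed for it in any dermal papilla library, or in hair matrix replicates 1 and 3, and 1 read, or 0.0408 RPM, was listed in hair matrix replicate 2. The floor of 3 reads, taken as the limit that a count of 0 allows, is 0.121 to 0.125 RPM per library. The exact Poisson 95% interval of 0 reads reaches further, to 0.149 to 0.154 RPM in the libraries without a read. With both cell types at or under the floor no fold was computed, and the entry was not tested. Adding its read to miR-34c left the log2 change of that member at -1.18. The unequal levels of miR-34b and miR-34c are those of the listed entries. The sequences differ at base 11 alone, so reads could be given to either if mismatches were allowed, which is not known.

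miR-449a was the most abundant family member of dermal papilla cells. Its levels there were 50.4, 46.6 and 49.7 RPM in replicates 1, 2 and 3. In hair matrix replicates 1, 2 and 3 it was at 2.88, 4.45 and 4.92 RPM. All dermal papilla libraries were above 46 RPM and all hair matrix libraries under 5 RPM. The means of 48.9 ± 1.99 RPM (SD, n = 3) and 4.08 ± 1.07 RPM (SD, n = 3) differed 12.0-fold, with a log2 change of 3.32 ± 0.158 (SE) and a limma adjusted p of 7.31e-07. Its rank by mean level was 146 in dermal papilla and 271 in hair matrix cells.

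miR-449b followed miR-449a at a lower level. The sequences differ at their end bases alone, and how reads were divided between them is not known. It was at 5.35, 4.89 and 6.64 RPM in dermal papilla replicates 1, 2 and 3 and at 0.0405, 0.490 and 0.625 RPM in hair matrix replicates 1, 2 and 3. The groups did not overlap, but hair matrix replicate 1 was low, with 1 read against 12 and 15 in the other hair matrix libraries. The exact Poisson 95% interval of that read is 0.0253 to 5.57 reads, and that of 12 reads is 6.20 to 21.0. The means were 5.63 ± 0.907 and 0.385 ± 0.306 RPM (SD, n = 3 each), a 14.6-fold difference. Leaving out 1 library at a time moved this value between 10.1-fold and 21.2-fold, the ends being those without hair matrix replicate 1 and without hair matrix replicate 3. The log2 change was 2.28 ± 0.187 (SE), with a limma adjusted p of 1.67e-05, and fell to 0.59 with a pseudocount of 10. miR-449b passed the filter on low values through dermal papilla libraries alone, so this p is given as description only.

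miR-449c was the lowest of its locus, at 1.76, 1.59 and 1.90 RPM in dermal papilla replicates 1, 2 and 3. In hair matrix replicates 1, 2 and 3 it was at 0.0405, 0.0817 and 0.125 RPM, which is 1, 2 and 3 reads. The groups did not overlap, and every hair matrix value was at or under the floor of 3 reads. Over the summed reads of each cell type, 126 and 6, the ratio was 21.3 with an exact 95% interval of 9.53 to 59.2. The log2 change was 1.34 ± 0.080 (SE), with a limma adjusted p of 2.70e-06, and was 0.22 with a pseudocount of 10. miR-449c passed the filter on low values through dermal papilla libraries alone, and the pseudocount narrows the spread of its hair matrix values. The SE and p are therefore given as description only.

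Within the miR-449 locus the ratios between the cell types could not be told apart by counting. On summed reads the ratio of dermal papilla to hair matrix was 12.0 for miR-449a, with an exact 95% interval of 10.7 to 13.6. For miR-449b it was 14.7, with an interval of 10.03 to 22.4. Both intervals overlap that of miR-449c. In dermal papilla replicates 1, 2 and 3 there were 9.41, 9.54 and 7.48 reads of miR-449a per read of miR-449b. The same ratio was 71.0, 9.08 and 7.87 in hair matrix replicates 1, 2 and 3, so that replicates 2 and 3 were near the dermal papilla values and replicate 1 stood apart. The summed mesenchymal markers of hair matrix replicates 1, 2 and 3 were 1212, 1204 and 1421 RPM. Replicate 3, with the highest sum, also had the highest miR-449a and miR-449b of these libraries. Replicate 2, with the lowest sum, had more of both than replicate 1. The part of the markers in these values was not tested.

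Because all members share the seed, their reads were also summed. The family made up 107, 100.4 and 103 RPM in dermal papilla replicates 1, 2 and 3 and 171, 185 and 187 RPM in hair matrix replicates 1, 2 and 3. The sum was higher in each hair matrix library. Mean sums of 103 ± 3.22 and 181 ± 8.38 RPM (SD, n = 3 each) differed 1.75-fold, less than any tested member did. As a share of listed reads, the sum was 0.0142% ± 0.000486 for dermal papilla and 0.0249% ± 0.00143 in hair matrix cells. Rescaling to the listed reads without the 5 most abundant entries, in place of all library reads, raised the mean sums to 391 and 786 RPM. That was a 2.01-fold difference, and TMM scaling gave a 1.78-fold difference. No test was made on these sums.

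The make-up of the sum differed far more than its size. In dermal papilla libraries the miR-449 locus gave 53.8%, 52.9% and 56.6% of family reads in replicates 1, 2 and 3, and miR-34a gave 44.5%, 45.1% and 41.8%. In hair matrix replicates 1, 2 and 3 the miR-449 locus gave 1.73%, 2.72% and 3.03%, and miR-34a gave 95.6%, 93.9% and 94.3%. Dermal papilla cells thus carried the seed on miR-34a and miR-449a at similar levels, and hair matrix cells carried it almost wholly on miR-34a. miR-34c gave 1.72% ± 0.245 and 2.92% ± 0.404 (SD, n = 3 each). These shares are taken within a library and are the same under any scaling of the library.

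**Figure D2:**
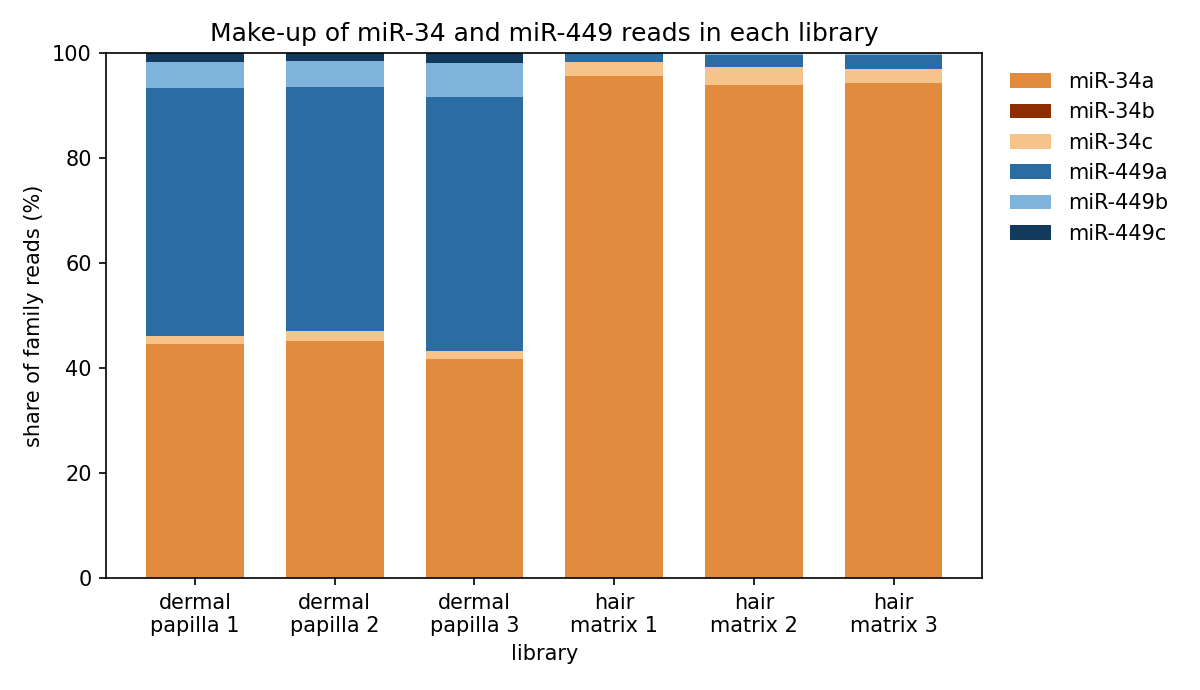
Stacked bars of the share of family reads held by each member, in percent, with 1 bar per library. miR-449a holds 46.4% to 48.3% of family reads in dermal papilla libraries and 1.68% to 2.63% in hair matrix libraries, where miR-34a holds 93.9% to 95.6%.

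Within single libraries there were 0.944, 0.971 and 0.865 reads of miR-34a per read of miR-449a in dermal papilla replicates 1, 2 and 3. In hair matrix replicates 1, 2 and 3 there were 56.9, 38.9 and 35.8. The members were thus nearly equal in dermal papilla cells, and miR-34a exceeded miR-449a by at least 35.8 times in every hair matrix library. miR-34a and miR-34c kept a closer proportion, with 27.05, 22.6 and 27.4 reads of miR-34a per read of miR-34c in dermal papilla replicates 1, 2 and 3. In hair matrix replicates 1, 2 and 3 these ratios were 35.5, 27.7 and 35.2. All lay above the dermal papilla range, replicate 2 only just, and the group means were 25.7 and 32.8. A read covers a whole mature miRNA, so levels are compared between members without division by length. How efficiently each sequence enters a library was not tested.

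In order of mean RPM, dermal papilla cells had miR-449a, miR-34a, miR-449b, miR-34c and miR-449c, with miR-34b last at 0 reads. miR-449a and miR-34a had overlapping ranges over these libraries, though miR-449a was higher within each of them, and miR-34c and miR-449c, at 1.78 ± 0.220 and 1.75 ± 0.155 RPM, also overlapped. Hair matrix cells had miR-34a first, then miR-34c, miR-449a, miR-449b, miR-449c and miR-34b. There the ranges of miR-34c and miR-449a overlapped, at means of 5.29 ± 0.854 and 4.08 ± 1.07 RPM. Those of miR-449b and miR-449c overlapped through hair matrix replicate 1, with 1 read for each.

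Replicates of the abundant members were tight. The coefficient of variation of miR-34a was 5.02% in dermal papilla and 3.80% in hair matrix cells, where counting error alone gives 3.03% and 1.55%. For miR-449a it was 4.07% in dermal papilla cells, against 2.92% from counting. In hair matrix cells miR-449a varied by 26.2% and miR-449b by 79.4%, against 10.03% and 32.7% from counting. The low level of the locus in hair matrix cells was therefore the least precise of these measurements.

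**Figure D3:**
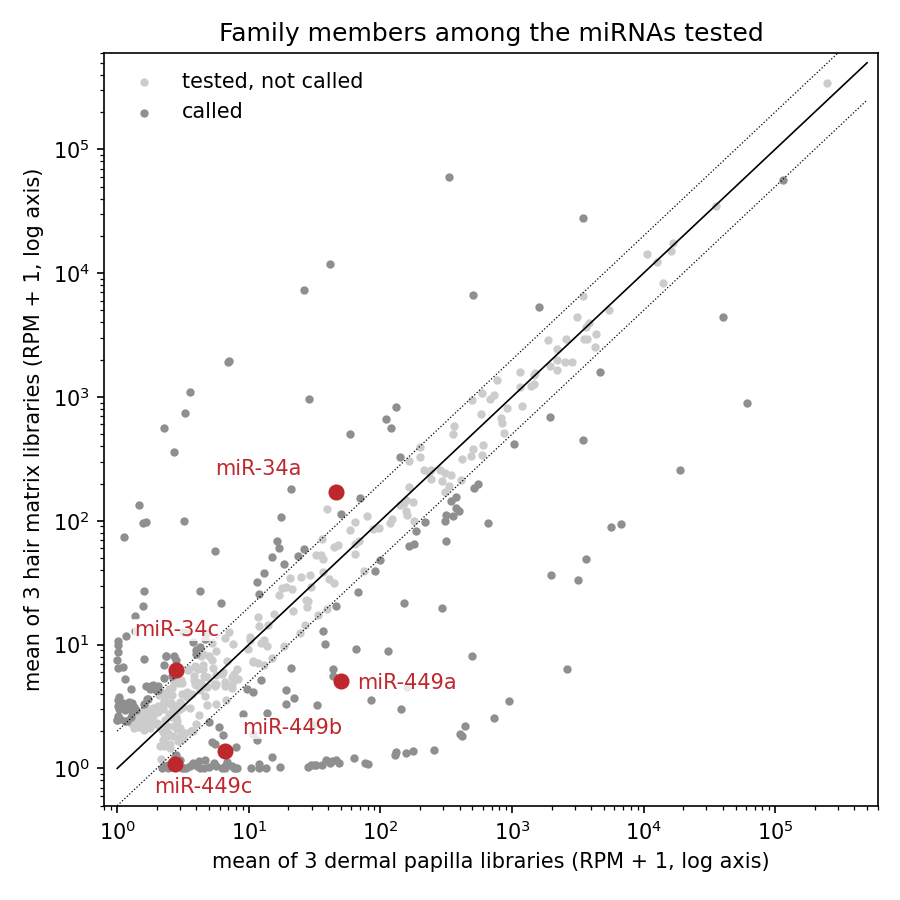
Mean level of the 503 tested miRNAs in dermal papilla (horizontal) and hair matrix (vertical) cells, as RPM + 1 on log axes, with called miRNAs in dark grey, family members in red and dotted lines at 2-fold. miR-34a and miR-34c lie above the diagonal, and miR-449a, miR-449b and miR-449c below it.

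The lower level of each member was set beside the markers of the other cell type. miR-449a in hair matrix cells was at 8.35% of its dermal papilla level, miR-449b at 6.84% and miR-449c at 4.72%. The 6 mesenchymal entries were at 1.03% to 1.76% of their dermal papilla levels in the same libraries. miR-34a in dermal papilla cells was at 26.5% of its hair matrix level and miR-34c at 33.6%. The 6 epithelial entries were at 0.235% to 2.88% of their hair matrix levels there. By mean level, all 5 members thus stood at a higher fraction in the lower cell type than these mesenchymal and epithelial entries. For miR-449c the fraction rests on 6 hair matrix reads. The exact interval of its dermal papilla to hair matrix ratio, 9.53 to 59.2, reaches the highest mesenchymal entry, miR-199a-5p. The dermal papilla level of that entry was 5678% of its hair matrix level, so counting does not separate miR-449c from it. In bulk libraries, fewer cells of a type and less RNA per cell cannot be told apart.

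**Figure D4:**
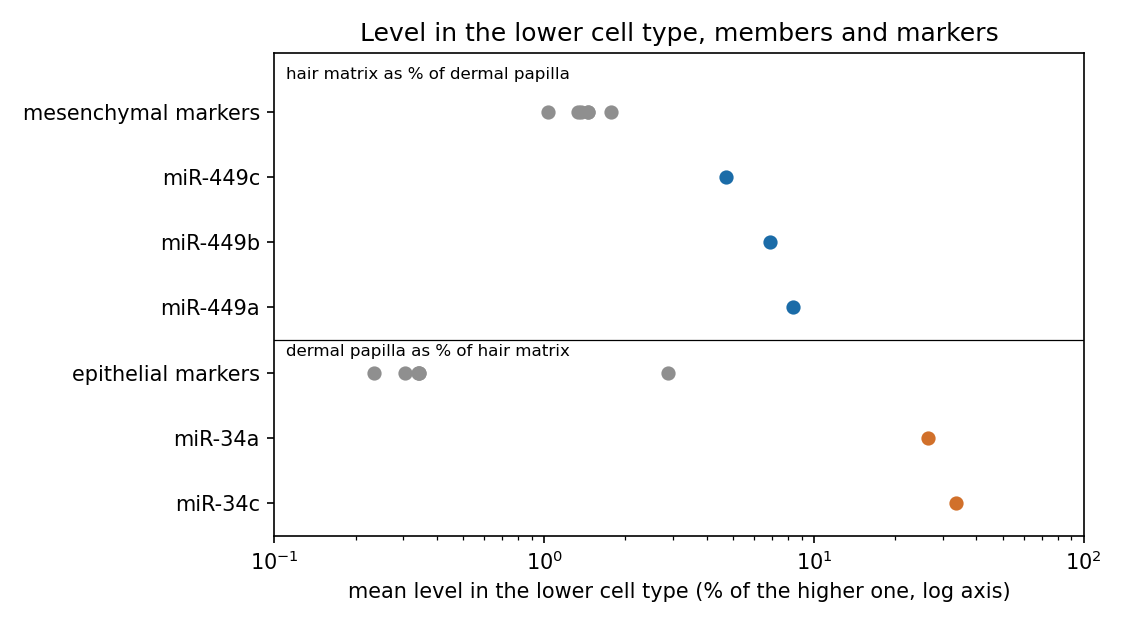
Mean level in the lower cell type as a percentage of the higher one, on a log axis, for the mesenchymal markers and miR-449 members (upper part, hair matrix relative to dermal papilla) and for the epithelial markers and miR-34 members (lower part, dermal papilla relative to hair matrix). Each grey point is 1 marker entry, and the members lie to the right of the markers, at 4.72% to 33.6%.

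Other miRNAs that p53 is known to induce, or to help process, were described from a list written with earlier results known. Of its 12 miRNAs, 11 matched an entry and were tested with limma. Of these, 3 had a call with the dermal papilla level higher and 2 with the hair matrix level higher, against 25.2% and 19.9% of all tested. The other 6 were not called, though 4 of them had a limma adjusted p under 0.05 at under 2-fold, in both directions. The median log2 change was 0.14, and that of all 503 tested miRNAs was -0.01. Those higher in dermal papilla cells were miR-143 and miR-145, known from fibroblasts and smooth muscle, and miR-215. miR-143 was at 61652 ± 1669 and 898 ± 88.2 RPM (SD, n = 3 each), and miR-145 at 3152 ± 509 and 32.4 ± 4.32 RPM. miR-215 was at 11.5 ± 1.51 and 4.21 ± 0.541 RPM. Those higher in hair matrix cells were miR-200c, at 40.2 ± 4.36 and 11849 ± 226 RPM, and miR-141, at 0.459 ± 0.153 and 133 ± 5.62 RPM, both of the epithelial miR-200 family. All but miR-215 of these 5 are also in the marker lists above.

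The tested miRNAs outside the family with the most similar pattern were found by the root mean square difference of centred log2(RPM + 1) values over the 6 libraries. Candidates were the 236 tested miRNAs with cattle names and at least 10 RPM in the higher cell type. Nearest to miR-34a were miR-221, miR-652 and miR-29b, at differences of 0.10, 0.11 and 0.12 on the log2 scale. Nearest to miR-34c were let-7a-3p, miR-7857-5p and miR-2284x, at 0.14, 0.15 and 0.16. Nearest to miR-449a were miR-136, miR-148a and miR-3120, at 0.18, 0.19 and 0.19. miR-148a was the most abundant of these, at 40437 RPM in dermal papilla and 4421 RPM in hair matrix cells. With 2 groups, likeness mostly reflects the size of the log2(RPM + 1) difference between the cell types, which the pseudocount shrinks for low entries. In mean RPM the folds were not all alike. let-7a-3p, which was not called, was at 35.0 and 70.2 RPM in dermal papilla and hair matrix cells, and miR-34c at 1.78 and 5.29 RPM. miR-136 was at 10.9 and 0.0821 RPM in dermal papilla and hair matrix cells, and miR-3120 at 13.9 and 0.233 RPM. miR-449a was at 48.9 and 4.08 RPM.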

How the data were processed

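Total RNA (1 µg per sample) of 3 dermal papilla and 3 hair matrix samples was made into TruSeq small-RNA libraries, per the labels' protocols. Trimmomatic, HISAT2 2.2.1.0 and DESeq 1.20.0 are named without roles, per the submitters' processing notes. Which genome build, miRNA reference and counting of multiply matching reads were used is "not given in the sources used here". Deposited values, called TPM by the authors, are RPM: dividing by the value of 1 read gives whole numbers (tolerance 0.001 read) for 100% of values in every library, whatever the length of the entry. Whole reads were recovered from the steps. Listed entries hold 71.7% to 73.5% of the library totals.

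A level of 1 RPM or more in 3 or more libraries was required, which 503 entries met. Their log2(RPM + 1) values were fitted by limma 3.58.1 under R 4.3.3 on cell type alone, using trended variances and Benjamini-Hochberg adjustment. The limma step was tested on simulated reads before use. The family, its lists and tests were chosen with earlier results of these data known. Named miRNAs are all family members, list members that were called, markers and the 3 nearest in pattern to the most abundant tested member of each locus. Replicates differed beyond counting noise (chi-square per degree of freedom 27.6 to 79.8), and all 6 libraries were counted separately. Alternatives were other pseudocounts, filters and scalings, variances without trend, a replicate block, edgeR 4.0.16, DESeq2 1.42.0, adding near-identical entries, and dropping single libraries while the same entries were tested.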

Additional observations from a re-analysis of the deposited data

How the results depend on the processing

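The 3 members called with the dermal papilla level higher and the 2 with the hair matrix level higher gave the same counts under 16 of 18 alternatives each. With a pseudocount of 10 the counts were 1 and 1, because the log2 changes of miR-34c, miR-449b and miR-449c shrank to -0.38, 0.59 and 0.22, all still with a limma adjusted p under 0.05. A filter of 10 RPM also left 1 and 1, because these low members were then not tested. No member changed direction under any alternative run. Log2 changes ranged from -2.31 to -1.71 for miR-34a and from 2.07 to 3.65 for miR-449a, both called throughout, including edgeR and DESeq2 on whole reads. For the low members they ranged from -1.63 to -0.38 (miR-34c), 0.59 to 3.94 (miR-449b) and 0.22 to 4.48 (miR-449c). The upper ends of miR-449b and miR-449c came from DESeq2. Over all tested miRNAs the 127 and 100 calls became 77 and 40 with a pseudocount of 10, 80 and 47 with a filter of 10 RPM, and 155 and 227 of 764 tested without the 5 most abundant entries. Median centring moved the median log2 change of all tested miRNAs from -0.01 to -0.29, and miR-449c stayed called there at 1.07.

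With the replicate number as a block the members' counts were 3 and 2, miR-34c had a log2 change of -1.17 (limma adjusted p = 0.000147), and all calls were 127 and 101. Same-numbered libraries correlated at 0.14, 0.08 and -0.27 in their deviations from group means, and 2 of 6 libraries correlated best with their own number. With 3 libraries per cell type, these correlations cannot decide whether same-numbered libraries share an origin, which the labels do not state. Depth limits miR-34b, and miR-449b and miR-449c in hair matrix cells, which rest on 28 and 6 reads there.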

Other observations

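An entry named miR-449d is listed beside the family but does not carry its seed, and was singled out after its values were seen. Its deposited sequence, with bases 2 to 8 in capitals, is shown for comparison with the members.
miR-449d: gAAGGCTGtgtgctgtggag
It was listed at 0, 0.0418 and 0.0412 RPM in dermal papilla replicates 1, 2 and 3 and at 0.0810, 0.327 and 0.167 RPM in hair matrix replicates 1, 2 and 3, a total of 16 reads. It did not pass the filter on low values and was not tested.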
